A study of Mus musculus with 12 samples.

Results

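The Schlafen genes are a family of interferon-inducible genes that lie side by side on mouse chromosome 11. The 7 members described here (Slfn1, Slfn2, Slfn3, Slfn4, Slfn5, Slfn8 and Slfn9) were taken by symbol from a table of 43280 genes. All 7 passed the filter on low values (at least 1 CPM in at least 2 libraries, where CPM is the reads of a gene per 1000000 reads on genes), as did 12086 genes in all. The table holds 11 rows whose symbol begins with Slfn, and the other 4 (Slfn10-ps, Slfn14, Slfnl1 and Slfn5os) are described beside the members.

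The cells were bone marrow-derived macrophages (BMDM) of C57BL6 mice, either wild type (wt) or Treml4-/-, a germline knockout of a receptor of the TREM family. BMDM were grown with M-CSF and then received either PBS as vehicle (M0) or LPS at 100 ng/ml, a bacterial ligand of Toll-like receptor 4, for 8 h (M1-8 h) or 12 h (M1-12 h). Each of the 6 conditions had 2 libraries that the labels call biological replicates, 12 libraries in all, and the labels do not say whether libraries with the same number came from the same mouse. The question put to these genes was how they respond to LPS over time and whether loss of Treml4 alters their level before or after LPS.

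Libraries held 48008751 to 58500792 reads on genes, so that 3 reads, the limit that a count of 0 allows, were worth 0.0513 to 0.0625 CPM. These limits cover counting error only. Treml4 itself had 198 to 663 reads in the 6 wt libraries and 0 reads in the 6 Treml4-/- libraries. All 8 macrophage markers listed passed the filter (Adgre1 under its older symbol Emr1), with a summed level of 9996 to 27907 CPM. The 8 T cell markers listed summed to 3.73 to 32.6 CPM, and Lck and Cd4 among them passed the filter. The T cell genes Cd3e, Cd3d and Cd3g did not exceed 0.0204 CPM in any library. These are bulk libraries, in which fewer cells that make an RNA and less of that RNA per cell cannot be told apart.

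Schlafen proteins share an amino-terminal core domain that is related to nucleic acid-binding enzymes, and several of them cut or bind transfer RNA. Short members (Slfn1 and Slfn2) consist of little more than that core, intermediate members (Slfn3 and Slfn4) carry an added linker region, and long members (Slfn5, Slfn8, Slfn9 and Slfn14) end in a helicase-like domain. In mice the family is best known for restraining the growth of T cells and for keeping immune cells quiescent, and in macrophages its genes are induced by type I interferon, which LPS elicits through interferon beta.

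The annotation on GRCm38 (mm10) shows the same 3 classes. The coding sequences span 337 codons in Slfn1 and 378 in Slfn2, 640 in Slfn3 and 602 in Slfn4, and 884 in Slfn5, 910 in Slfn8 and 910 in Slfn9. From left to right the members lie at chr11:82951349-82964840 (Slfn5, plus strand), chr11:82978390-82991830 (Slfn9, minus), chr11:83002158-83020810 (Slfn8, minus), chr11:83065112-83070678 (Slfn2, plus), chr11:83116849-83122670 (Slfn1, plus), chr11:83175186-83190216 (Slfn4, plus) and chr11:83191330-83215154 (Slfn3, plus). Slfn10-ps, a transcribed pseudogene, lies between Slfn8 and Slfn2, and Slfn14 closes the cluster, which covers 335378 bases and holds 0 other protein-coding genes. Coding sequences were 92.1% identical between Slfn3 and Slfn4 over the aligned bases and 92.7% between Slfn8 and Slfn9, against 57.0% to 73.8% for every other pair of members. The share of 126-base stretches of exon, the length of 1 read, that occur in another gene was 2.35% for Slfn9, 1.99% for Slfn3, 0.853% for Slfn8 and 0 for Slfn1, Slfn2, Slfn4 and Slfn5. A read from those stretches cannot by itself be assigned to a single gene, and how far its paired read resolves this was not tested. The levels of Slfn3, Slfn8 and Slfn9 are uncertain in that respect.

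Promoters of all 7 members were found in RefSeq (GRCm38.p6), each covering 250 bases before to 50 after the RefSeq start, and were searched on both strands for 3 motifs of LPS and interferon signalling. The interferon-stimulated response element (ISRE, letters GAAANNGAAA), which binds interferon regulatory factors, was found in Slfn5, Slfn8 and Slfn9 and in 0 of the 4 short and intermediate members, against 3.49% of 27025 mouse promoters. No match was found for Slfn14, the other long gene, and whether its promoter was among those searched is not given here. The ISRE match begins 155 bases before the RefSeq start of Slfn5, 48 before a RefSeq start of Slfn8 and 45 before that of Slfn9. The same Slfn8 match lies 136 bases before another RefSeq start of that gene. In Slfn8 and Slfn9 the motif is on the opposite strand. That start of Slfn5, at position 82952102, lies 753 bases downstream of the first base given above, so the window falls inside the annotated span of the gene. The windows around these matches are shown because the 3 long members hold them. Capitals mark the ISRE match, and each window is written 5′ to 3′ on the gene's strand. The matches are of letters only, and binding was not tested. In Slfn5 the match runs on into further A bases.

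Slfn5, chr11:82951927-82951976 (plus): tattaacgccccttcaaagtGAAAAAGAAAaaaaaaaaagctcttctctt

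Slfn8, chr11:83020829-83020878 (minus): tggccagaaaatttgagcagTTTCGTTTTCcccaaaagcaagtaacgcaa

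Slfn9, chr11:82991846-82991895 (minus): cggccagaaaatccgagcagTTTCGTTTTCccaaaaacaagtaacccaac

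The promoters of the 4 short and intermediate members have another stretch in common. The longest run of bases that all 4 hold is ACTTCCTGG, which begins 74 bases before the RefSeq start of Slfn1 (a start 29 bases upstream of the first base given above), 55 before Slfn2, 42 before Slfn3 and 73 before Slfn4, and it occurs on either strand in 0.888% of mouse promoters. In Slfn1, Slfn2 and Slfn4 the run extends to ACTTCCTGGAG, found in 0.0851% of promoters. These letters were picked because the members share them. The other 2 motifs, the gamma-activated site (TTCNNNGAA, in 8.47% of promoters) and a kappaB site (GGGNNTTTCC, in 1.62%), were matched in 0 of the 7 windows. In the sequences that follow, capitals mark the common run.

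Slfn1, chr11:83116726-83116774 (plus): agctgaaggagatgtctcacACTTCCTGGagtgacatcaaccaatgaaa

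Slfn2, chr11:83065037-83065085 (plus): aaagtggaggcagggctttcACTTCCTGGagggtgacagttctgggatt

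Slfn3, chr11:83191268-83191316 (plus): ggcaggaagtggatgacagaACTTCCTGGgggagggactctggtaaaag

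Slfn4, chr11:83175093-83175141 (plus): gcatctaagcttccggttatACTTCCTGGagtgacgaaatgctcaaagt

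Before LPS the family was represented almost entirely by Slfn2. Per kilobase of exon, which allows levels to be compared between genes, Slfn2 stood at 218 to 245 CPM per kb in the 4 M0 libraries. It was followed by Slfn5 (12.1 to 13.6), Slfn8 (5.21 to 6.68), Slfn9 (0.801 to 2.03), Slfn3 (0.49 to 0.865), Slfn1 (0.361 to 0.507) and Slfn4 (0.0298 to 0.19). Slfn2 thus made up 90.3% to 92.5% of the summed per-length level of the 7 genes at M0. In wt M0 the neighbours Slfn9 and Slfn3, and Slfn3 and Slfn1, overlapped between libraries, whereas in Treml4-/- M0 no neighbours in this order did.

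LPS both raised the family and changed its make-up. The summed level went from 242 to 265 CPM per kb at M0 to 1546 to 1693 at M1-8 h and 1134 to 1273 at M1-12 h. Slfn2 remained the highest member in all 12 libraries, but its share was 56.4% to 69.9% at 8 h and 57.5% to 59.0% at 12 h. Slfn5 was second in every condition, with 12.0% to 17.3% at 8 h and 12.9% to 15.0% at 12 h. Slfn1 reached 6.73% to 8.55% at 8 h, and Slfn4 went from at most 0.0768% at M0 to 0.957% to 4.47% at 8 h and 6.94% to 10.8% at 12 h. Slfn3 was the lowest member after LPS, at 3.98 to 8.01 CPM per kb at 8 h and 4.13 to 5.31 at 12 h.

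**Figure D1:**
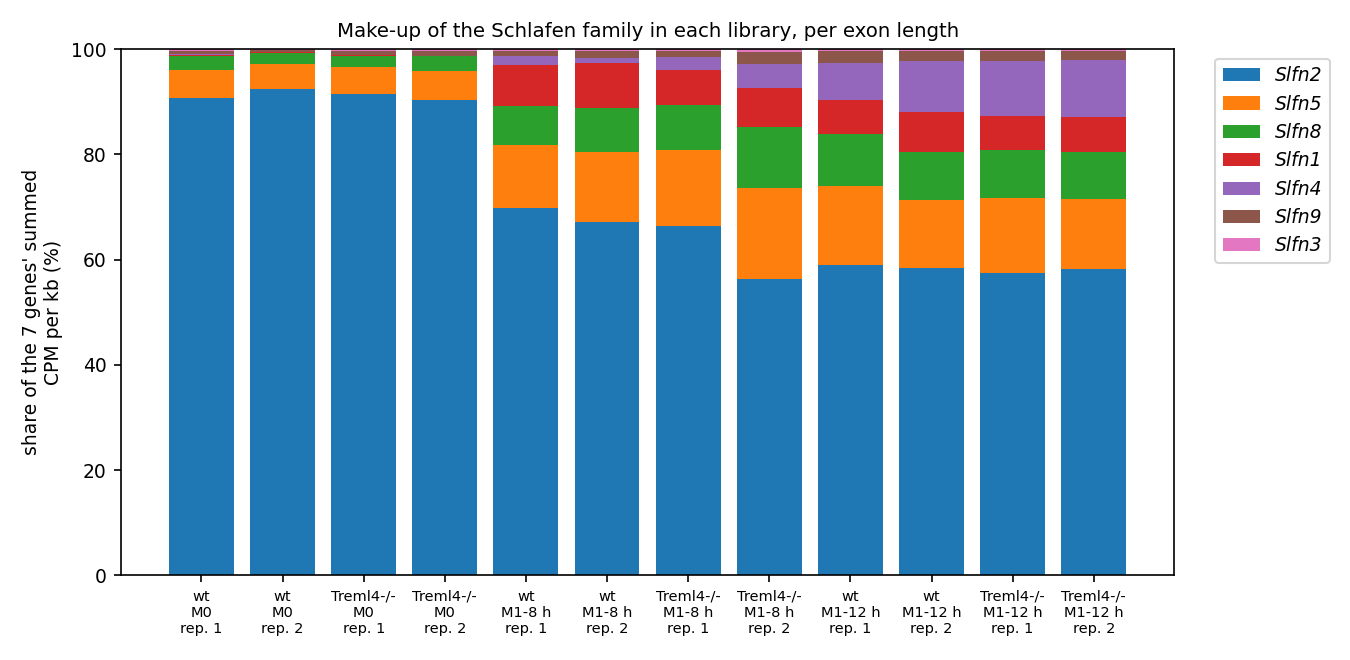
Share of each Schlafen gene in the summed CPM per kb of the 7 genes (percent, stacked bars), with 1 bar per library ordered by stage and genotype. The Slfn2 share is 90.3% to 92.5% in the 4 M0 libraries and 56.4% to 69.9% in the 8 LPS libraries, and the Slfn4 share is visible only after LPS.

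Within a library, members of the same class were compared by their ratio. Slfn4 was 0.0607 to 0.219 times the per-length level of Slfn3 at M0, 3.56 to 8.63 times at 8 h and 19.0 to 26.8 times at 12 h. Slfn8 was 2.72 to 7.43 times Slfn9 at M0 and 4.33 to 7.34 times in the LPS libraries, ranges that overlap. Slfn2 exceeded Slfn1 by 442 to 645 times at M0 and by 7.59 to 9.87 times after LPS.

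All 7 members rose with LPS at 8 h and at 12 h in limma on log2(CPM + 1), adjusted over all 12086 genes, with a differentially expressed gene (DEG) defined by an adjusted p under 0.05 and at least 1.4-fold change. Of all genes tested, 17.1% were called higher at 8 h and 16.3% at 12 h. In each of the 7 genes the 8 LPS libraries lay above the 4 M0 libraries, which held for 15.8% of genes. The median change of the members was 4.11 on the log2 scale at 8 h and 3.76 at 12 h. The median over all genes was -0.72 and -0.76 with library-size scaling, and -0.04 at both times when libraries were scaled by the median of ratios, so the changes of the members stand against that shift. With median-of-ratios scaling the share of calls that were higher went from 22.3% to 49.8% at 8 h and from 21.2% to 50.1% at 12 h, while all 7 members were called higher under either scaling. The summed level of 6 neutrophil marker genes was 26.5 to 90.0 CPM at M0, 23.6 to 34.0 at 8 h and 8.85 to 9.25 at 12 h. Summed dendritic cell markers (5 genes, of which Ccr7 and Xcr1 passed the filter) were 0.649 to 1.16 CPM at M0 and 13.8 to 27.3 after LPS, and their part in the members' values was not tested.

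**Figure D2:**
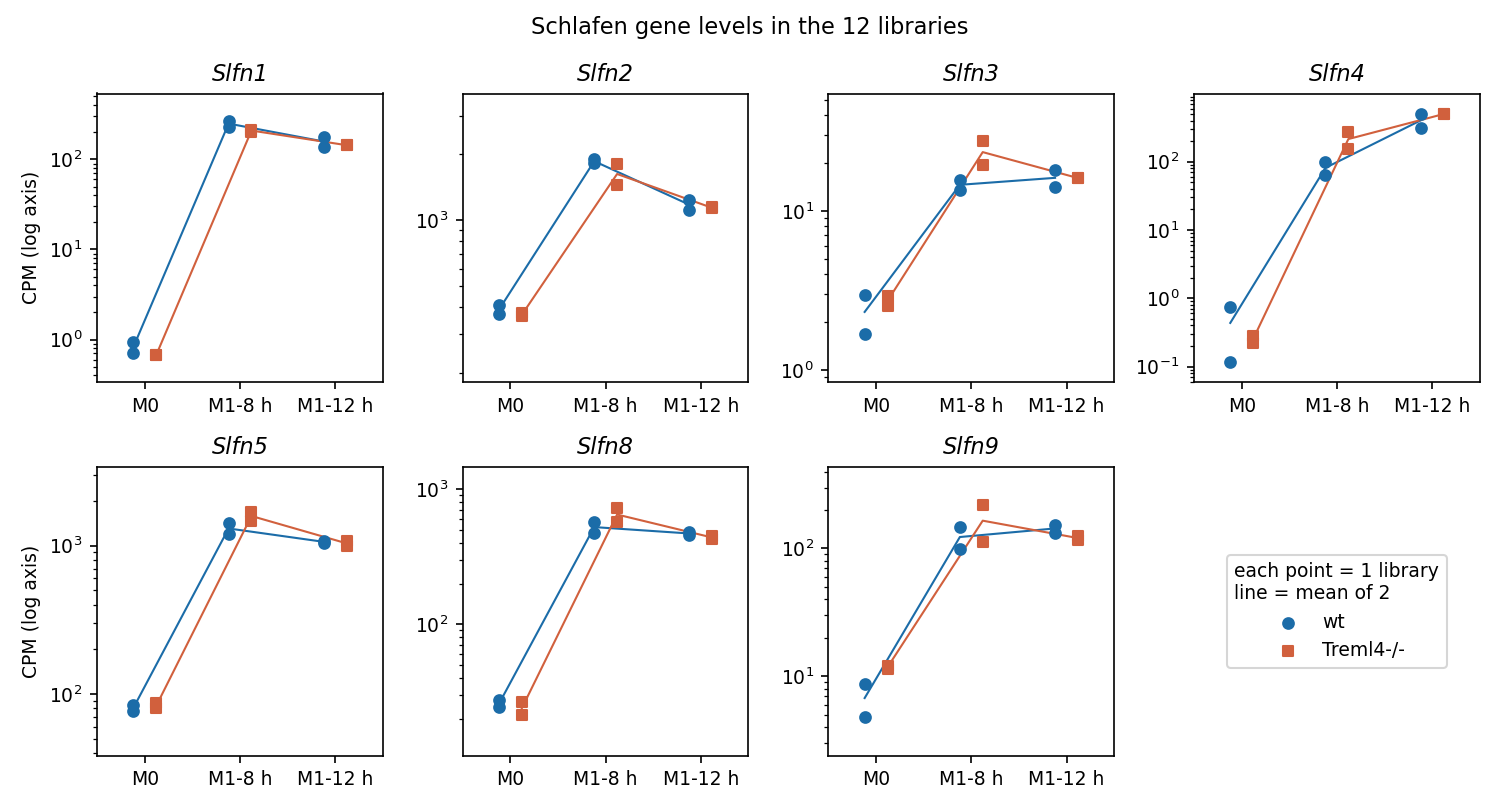
CPM of the 7 Schlafen genes (log axis) at M0, M1-8 h and M1-12 h, where each point is 1 library, circles are wt, squares are Treml4-/-, and lines join the means of 2 libraries. All LPS points lie above all M0 points in each panel, and in the Slfn4 panel all 12 h points lie above all 8 h points.

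Among the short members, Slfn1, whose forced expression arrests the growth of T cells, was barely detected before LPS. It had 0.945 and 0.708 CPM in wt M0 and 0.672 and 0.673 in Treml4-/- M0, that is 33 to 49 reads per library. At M1-8 h it stood at 230.0 and 269.6 CPM in wt and 204 and 214 in Treml4-/-, and at M1-12 h at 138 and 178 in wt and 143 and 144 in Treml4-/-. The 4 libraries of 8 h all exceeded the 4 of 12 h. On the log2(CPM + 1) scale the rise was 7.04 ± 0.090 (SE) at 8 h (adjusted p = 7.02e-14) and 6.44 ± 0.090 at 12 h (adjusted p = 1.48e-13), with rank 40 and rank 58 among the 12086 genes. The pseudocount compresses this change, since the ratio of mean CPM was 306-fold at 8 h and 201-fold at 12 h.

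Slfn2, which protects transfer RNA from cleavage in activated T cells and whose loss breaks the quiescence of T cells and monocytes, was the most abundant member at M0. Its level was 372 and 408 CPM in wt M0 and 375 and 363 in Treml4-/- M0. LPS brought it to 1822 and 1895 CPM in wt and 1798 and 1451 in Treml4-/- at 8 h, and to 1114 and 1236 in wt and 1143 and 1130.1 in Treml4-/- at 12 h. The libraries of M0, 12 h and 8 h occupied 3 separate ranges. Its log2 change was the smallest of the 7 members, 2.19 ± 0.075 (SE) at 8 h (adjusted p = 1.48e-10) and 1.60 ± 0.075 at 12 h (adjusted p = 1.76e-09), or 4.59-fold and 3.04-fold by mean CPM. An antisense gene, Gm20234, overlaps Slfn2 on the other strand, and whether the counting used strand is not given in the sources used here.

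Of the intermediate members, Slfn4, a gene of myeloid cells whose RNA falls as macrophages differentiate, showed the widest span. It had 0.752 and 0.118 CPM in wt M0 (39 and 6 reads) and 0.224 and 0.281 in Treml4-/- M0 (11 and 15 reads). At 8 h it stood at 98.5 and 64.2 CPM in wt and 155 and 274 in Treml4-/-, and at 12 h at 312 and 494 in wt and 498 and 498 in Treml4-/-. Every 12 h library exceeded every 8 h library. The log2 change was 6.61 ± 0.22 (SE) at 8 h (adjusted p = 9.98e-11) and 8.39 ± 0.22 at 12 h (adjusted p = 1.64e-11), where it ranked 15 of 12086 genes. By mean CPM this was 430.4-fold and 1311-fold over a base of few reads. In wt M0 replicate 2, the library with 6 Slfn4 reads, the summed neutrophil markers were 26.5 CPM, against 76.0 to 90.0 CPM in the other 3 M0 libraries, and the part of those markers in the M0 values was not tested.

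Slfn3, the closest relative of Slfn4, was the least abundant member after LPS. It went from 2.95 and 1.67 CPM in wt M0 and 2.53 and 2.90 in Treml4-/- M0 to 13.6 and 15.5 in wt and 19.5 and 27.3 in Treml4-/- at 8 h. At 12 h it had 14.1 and 18.1 CPM in wt and 16.0 and 16.1 in Treml4-/-. The LPS libraries of the 2 times overlapped. Its log2 change was 2.48 ± 0.14 (SE) at 8 h and 2.29 ± 0.14 at 12 h, with adjusted p of 1.21e-08 and 2.22e-08.

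The 3 long members gave similar changes. Slfn5, a nuclear protein that represses the transcription of some interferon-induced genes, was the second most abundant member, at 76.8 to 86.3 CPM in the 4 M0 libraries. It reached 1192 and 1415 CPM in wt and 1472 and 1691 in Treml4-/- at 8 h, and 1079 and 1039 in wt and 1079 and 989.5 in Treml4-/- at 12 h, below every library of 8 h. Its log2 change was 4.11 ± 0.075 (SE) at 8 h and 3.66 ± 0.075 at 12 h, with adjusted p of 1.07e-12 and 2.87e-12.

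Slfn8 went from 21.3 to 27.3 CPM at M0 to 472 and 576 in wt and 569 and 729 in Treml4-/- at 8 h. At 12 h it stood at 456 and 483 CPM in wt and 449 and 427 in Treml4-/-, a range that overlapped that of 8 h. The log2 change was 4.49 ± 0.10 (SE) at 8 h and 4.14 ± 0.10 at 12 h, with adjusted p of 5.05e-12 and 1.05e-11.

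Slfn9, which shares most of its coding sequence with Slfn8, had 8.72 and 4.78 CPM in wt M0 and 11.4 and 12.1 in Treml4-/- M0. It stood at 99.5 and 146 in wt and 113 and 217 in Treml4-/- at 8 h, and at 154 and 133 in wt and 125 and 116 in Treml4-/- at 12 h. Replicates of Slfn9 differed more than those of Slfn8, by 1.92 times in Treml4-/- M1-8 h against 1.28 times. Treml4-/- M0 was the exception, at 1.06 times for Slfn9 against 1.25 times for Slfn8. Its log2 change was 3.82 ± 0.21 (SE) at 8 h and 3.76 ± 0.21 at 12 h, with adjusted p of 7.24e-09 and 7.82e-09.

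**Figure D3:**
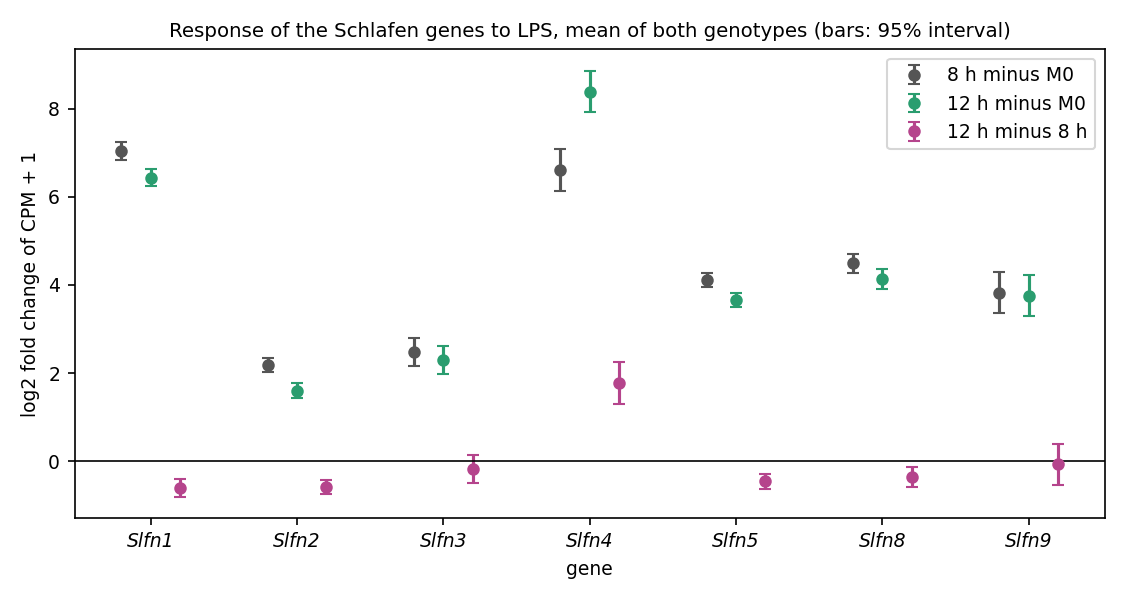
Log2 fold change of CPM + 1 for the 7 Schlafen genes, mean of both genotypes, for 8 h against M0, 12 h against M0 and 12 h against 8 h, where points are limma estimates and bars their 95% intervals. The changes against M0 run from 1.60 (Slfn2 at 12 h) to 8.39 (Slfn4 at 12 h), and Slfn4 is the gene with a positive value between 8 h and 12 h.

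Between 8 h and 12 h the members parted. Slfn4 rose further, by 1.78 ± 0.22 (SE, adjusted p = 3.48e-05), and was the 1 member of 7 called higher, where 13.5% of all genes were. Slfn1 (fell by 0.60, SE 0.090, adjusted p = 0.00016) and Slfn2 (fell by 0.58, SE 0.075, adjusted p = 5.30e-05) were the 2 members called lower, where 18.7% of all genes were. Slfn5 and Slfn8 differed by -0.45 (adjusted p = 0.000357) and -0.35 (adjusted p = 0.0103), under the 1.4-fold minimum. Slfn3 and Slfn9 differed by -0.18 (95% interval -0.50 to 0.13) and -0.066 (-0.53 to 0.40), with adjusted p of 0.294 and 0.807. With quantile normalization Slfn1 differed by -0.47, also under 1.4-fold, and Slfn9 changed sign to 0.021. Slfn5 was called lower without wt M1-8 h replicate 1 (-0.51) and without Treml4-/- M1-8 h replicate 1 (-0.50).

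The remaining rows of the family were low or not detected, apart from the pseudogene. Slfn10-ps rose from 6.63 to 9.45 CPM at M0 to 24.6 and 26.5 in wt and 31.7 and 46.2 in Treml4-/- at 8 h, and to 53.0 and 40.8 in wt and 51.9 and 44.5 in Treml4-/- at 12 h. Its log2 change was 1.88 ± 0.12 (SE, adjusted p = 3.35e-08) at 8 h and 2.46 ± 0.12 (adjusted p = 3.03e-09) at 12 h, and 4.26% of its 126-base stretches also occur in Slfn8 or Slfn9. Slfn14, a long member that degrades RNA at ribosomes, had 1 read in 2 libraries and 0 in the other 10. Slfnl1, on chromosome 4, had 0 to 2 reads per library. Slfn5os, on the strand opposite Slfn5, had 0 reads in the 4 M0 libraries, 3 to 14 at 8 h and 1 to 5 at 12 h, all below the filter.

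The genes that flank the cluster moved differently from the members. Of the 10 nearest protein-coding genes, 5 on either side, 4 are described here. Rffl, a ubiquitin ligase gene, was called higher at 8 h, at 1.19 on the log2 scale. Nle1 and Rad51d were called lower at -1.75 and -1.42, and Ap2b1, at 0.27, did not pass. With median-of-ratios scaling Ap2b1 was also called higher, at 1.07, while Nle1 and Rad51d were still called lower. The smallest member change at 8 h, 2.19, exceeded that of each of these 4 genes.

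**Figure D4:**
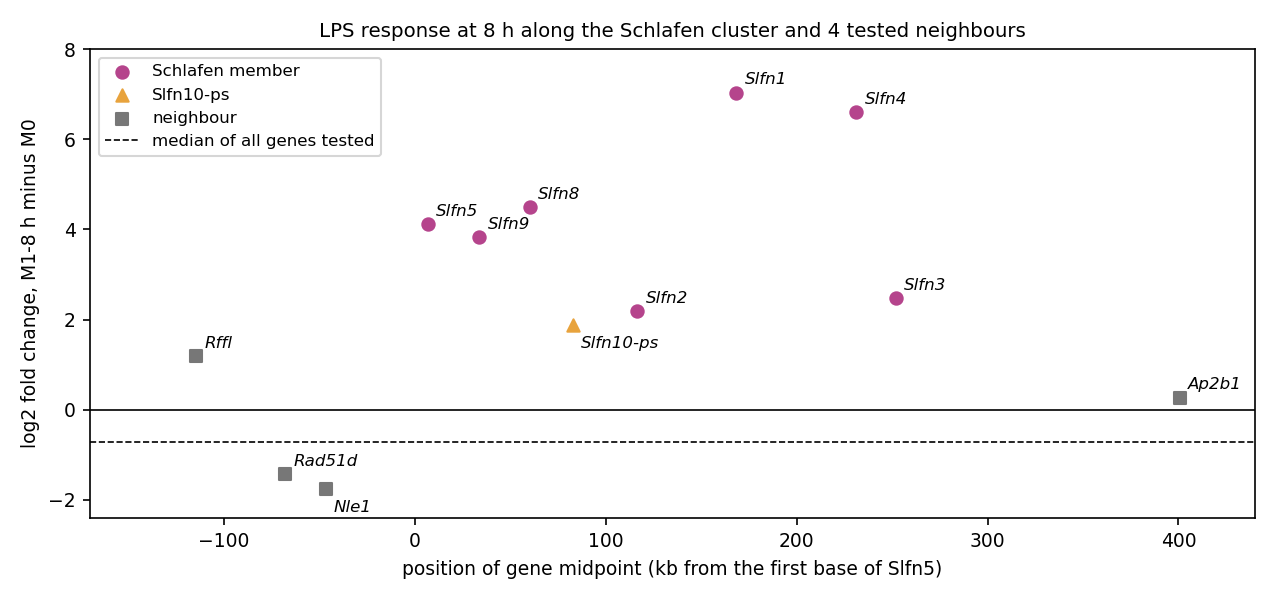
Log2 fold change at 8 h of LPS against the midpoint of each tested gene, in kb from the first base of Slfn5, for the 7 members, Slfn10-ps and 4 tested neighbours, with a dashed line at the median of all genes. The members lie between 2.19 and 7.04, and the neighbours between -1.75 and 1.19.

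The interferon pathway was read from lists beside the members. Of 6 ligand and receptor genes, 5 passed the filter and 2 were called higher at 8 h, namely Ifnb1, which encodes interferon beta (3.39 at 8 h and 1.12 at 12 h, log2), and the receptor subunit Ifnar1 (0.62 and 0.64). Ifngr1, a subunit of the interferon gamma receptor, was called lower (-3.26 and -2.94). With median-of-ratios scaling 4 of the 5 were called higher and 1 lower at either time. Ifna4 had 0 CPM in all libraries. Ifnb1 was called lower at 12 h than at 8 h (-2.27). Among the members Slfn1 and Slfn2 were called lower too, Slfn4 was called higher, and the others were not called.

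Of 10 signalling genes, 6 were called higher at 8 h and 8 at 12 h, with 1 lower at each time (Irf3, at -0.96 and -1.06). Irf7, the factor that amplifies type I interferon transcription, changed by 5.31 and 6.22, and Stat2 by 3.72 and 3.93. With median-of-ratios scaling 9 of the 10 were called higher and 0 lower at either time. All 3 feedback inhibitors (Socs1, Socs3 and Usp18) and all 20 interferon-stimulated effectors were called higher at both times. The median of the effectors was 5.68 at 8 h and 5.44 at 12 h, with Mx1 at 8.88 and 9.07, Rsad2 at 8.68 and 9.61 and Oas3 at 1.91 and 2.15. Slfn1 and Slfn4 lay above that median at both times, and the other 5 members below it. From 8 h to 12 h 3 of the 20 effectors were called higher (Bst2 1.01, Ifi44 0.87 and Rsad2 0.92) and 2 lower (Ifih1 -1.0 and Oasl1 -0.50).

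Members were also compared by their pattern over the 12 libraries, as Pearson's r of log2(CPM + 1), a description in which the points share conditions. Between members r ran from 0.871 (Slfn2 with Slfn4) to 0.999 (Slfn5 with Slfn8). Among the nearest genes were Gbp2, Serpina3f and Irgm1 for Slfn1 (r = 0.999 each), Tor1aip1 and Pik3ap1 for Slfn2 (0.997 and 0.996), and Morc3, Snx10 and Pmaip1 for Slfn3 (0.994 to 0.996). For Slfn4 they were I830012O16Rik, Oas1b and Pde7b (0.997 to 0.998), for Slfn5 Parp14, Fndc3a and Slfn8 (0.999 each), for Slfn8 Cflar, Trim30a and Parp14 (0.999 each), and for Slfn9 Tax1bp1, Txn1 and Eif2ak2 (0.995 to 0.996).

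Loss of Treml4 gave no call for any member by limma at M0, at M1-8 h, at M1-12 h or over the mean of the 3 time points. Over all genes 0.0993%, 0.091%, 0.132% and 0.414% were called in these comparisons, in the same order. By voom on the recovered reads 0 of 7 members were called in each as well. At an unadjusted p under 0.05 stood 1 member at M0, 3 at 8 h, 0 at 12 h and 3 for the mean, against 405, 2539, 912 and 2434 of the 12086 genes. Libraries of the genotypes did not overlap for 2 members at M0, 5 at 8 h and 3 at 12 h, against 28.8%, 51.9% and 43.1% of all genes.

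**Figure D5:**
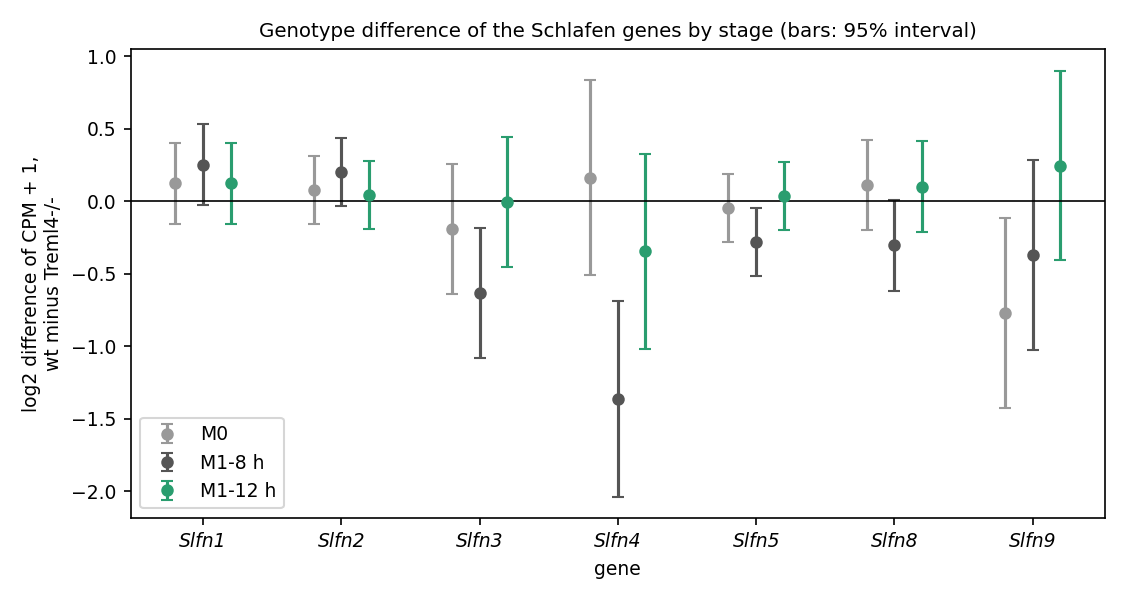
Difference between wt and Treml4-/- in log2(CPM + 1) for the 7 Schlafen genes, by time after LPS, where points are limma estimates and bars their 95% intervals. The Slfn4 value at M1-8 h, -1.36 with an interval from -2.04 to -0.69, is the farthest from 0, and none of the 21 differences passed the adjusted threshold.

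The widest genotype difference was that of Slfn4 at 8 h. Treml4-/- libraries (155 and 274 CPM) lay above wt libraries (98.5 and 64.2 CPM), with means of 214 ± 84.0 (SD, n = 2) and 81.3 ± 24.2, or 2.64 times. The log2 difference, wt minus Treml4-/-, was -1.36 (SE 0.31, 95% interval -2.04 to -0.69) at rank 12081 of 12086 genes, and its adjusted p of 0.124 did not pass. Without Treml4-/- M1-8 h replicate 1 it was -1.77 with an adjusted p of 0.0213, and without replicate 2 of that condition -0.95 with an adjusted p of 0.663. In both refits that condition has 1 library, which is assumed to vary like the other conditions. The first of these refits called 599 genes in all, against 11 with every library. At M0 the Slfn4 difference was 0.16 (-0.51 to 0.83) and at 12 h -0.34 (-1.02 to 0.33).

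At 8 h Slfn3 and Slfn5 were also at higher CPM in both Treml4-/- libraries than in both wt libraries. Their log2 differences were -0.63 (95% interval -1.08 to -0.18, adjusted p = 0.171) and -0.28 (-0.52 to -0.046, adjusted p = 0.190). Slfn1 and Slfn2 were at higher CPM in both wt libraries, with differences of 0.25 (-0.028 to 0.53) and 0.20 (-0.032 to 0.44) and adjusted p of 0.278 and 0.296. For Slfn8 and Slfn9 the genotypes overlapped, at -0.30 (-0.62 to 0.0082) and -0.37 (-1.03 to 0.28). At this time summed T cell markers, of which Lck and Cd4 passed the filter, were 16.0 and 32.6 CPM in wt and 11.1 and 14.6 in Treml4-/-. Neutrophil markers were 23.6 and 26.8 CPM in wt and 24.6 and 34.0 in Treml4-/-, and macrophage markers 12017 and 13416 CPM in wt and 10295 and 11030.2 in Treml4-/-. Their part in these differences was not tested.

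The replicates of Treml4-/- M1-8 h differed for several members. Replicate 2 exceeded replicate 1 by 1.92 times for Slfn9, 1.77 times for Slfn4, 1.4 times for Slfn3, 1.28 times for Slfn8 and 1.15 times for Slfn5, and was 0.807 times replicate 1 for Slfn2. On the log2 scale the Slfn9 and Slfn4 differences were larger than those of 98.8% and 98.1% of genes between these libraries. In wt M1-8 h the replicates differed in opposite directions for these genes, with replicate 2 at 1.47 times replicate 1 for Slfn9 and 0.652 times for Slfn4. Between the Treml4-/- M1-12 h libraries the ratio of the higher to the lower was at most 1.09 in all 7 genes.

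At M0 the largest genotype difference among the members was that of Slfn9, at -0.77 (95% interval -1.42 to -0.11, adjusted p = 1.00). Both Treml4-/- libraries (11.4 and 12.1 CPM) exceeded both wt libraries (8.72 and 4.78 CPM), and without wt M0 replicate 2, the library with the low neutrophil markers, the Slfn9 difference was -0.39. The other 6 members differed by -0.19 to 0.16 at M0. At 12 h the 7 differences ran from -0.34 (Slfn4) to 0.25 (Slfn9, interval -0.41 to 0.90).

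The response to LPS itself was compared between genotypes. At 8 h Slfn4 rose by 5.85 in wt and 7.37 in Treml4-/-, a difference of -1.52 (SE 0.43, 95% interval -2.47 to -0.57, adjusted p = 0.729). At 12 h its rise was 8.14 and 8.64, a difference of -0.50 (-1.46 to 0.45, adjusted p = 0.999). Slfn9 rose at 12 h by 4.27 in wt and 3.25 in Treml4-/-, a difference of 1.01 (0.088 to 1.94, adjusted p = 0.999). The other 6 members differed in their 8 h response by -0.44 (Slfn3) to 0.39 (Slfn9). None of the 7 members was called by limma or voom for either difference, where 0.00827% of genes were called at 8 h and 0.00827% at 12 h, and 1 member stood at an unadjusted p under 0.05 at each time, against 6.67% and 3.82% of all genes. The further rise of Slfn4 from 8 h to 12 h was 2.29 in wt and 1.27 in Treml4-/-, and a test of that difference, added after its values were seen, gave 1.02 (0.067 to 1.97, adjusted p = 0.948).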

How the data were processed

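The authors aligned paired-end reads of 126 bases from stranded poly(A) libraries with STAR (mm10, per the submitters' notes) and counted them with Subread. The authors deposited log2 CPM values with a prior count of 0.25 reads, and DESeq2 served the authors for their gene lists. The log2 values were turned back into whole reads (100% within 0.01 of a whole read) and CPM. The planned design had assumed CPM. limma 3.58.1 in R 4.3.3 was fitted to log2(CPM + 1) with 1 mean per condition over all 12 libraries, after checks on simulated data. P-values rest on the spread between 2 libraries per condition. Genes past an adjusted p (Benjamini-Hochberg) of 0.05 and a change of 1.4-fold were DEG. Levels per kb used merged GENCODE M21 exons. Named genes were the members, other Slfn rows, the listed pathway, neighbour and marker genes, Treml4, and the 3 genes most like each member, of which some are not reported here. The members and lists were chosen with earlier results of these data known. Alternatives covered pseudocount, filter, scaling, prior variance, voom, replicate block, samples in the fit, fold minimum and each library left out.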

Additional observations from a re-analysis of the deposited data

How the results depend on the processing

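All 7 members were called higher after LPS at both times under all 24 alternatives. Between 8 h and 12 h 3 members were called, 2 with quantile normalization and 5 with no minimum fold change. Of all 12086 genes 3885, 3786 and 7291 were called, in the same order. When single libraries were left out, the Slfn5 value ran from -0.51 to -0.39. At M1-8 h 0 members were called between genotypes, and 0 to 1 when single libraries were left out, the 1 being Slfn4 without Treml4-/- M1-8 h replicate 1. The other 5 genotype comparisons stayed at 0 calls. With the replicate number as a block, 7, 7 and 3 members were called for the LPS comparisons and 0 for the genotype ones. The labels tie no number to a mouse, and not every pair of same-numbered libraries deviated together: r was -0.26 (M0), 0.30 (8 h) and 0.056 (12 h) between genotypes, 0.12, 0.062 and 0.41 between times in wt, and 0.46, -0.20 and -0.27 in Treml4-/-. Culture as a block cannot be fitted for genotype differences, and for the mean of 3 time points the fit to its own libraries is the fit to all 12.

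Signs that turned with another scaling, on the deposited log2 CPM or with voom were of small values, and the cause was not tested. With median-of-ratios scaling the genotype difference of Slfn3 at 12 h was 0.078, that of Slfn8 over the mean 0.053, and the differences in the 12 h response were 0.10 (Slfn1), 0.018 (Slfn2) and 0.042 (Slfn8). With quantile normalization Slfn3 at 12 h was 0.059, the difference in the 12 h response of Slfn1 0.033, and Slfn9 between 8 h and 12 h 0.021. The difference in the 8 h response of Slfn1 was -0.028 on the deposited log2 CPM and -0.027 with voom.

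Leaving out single libraries gave these ranges where a sign turned, also for the larger values of Slfn9 at 8 h. The cause was not tested. Slfn9 ran from -0.30 to 0.17 between 8 h and 12 h. At M0 the genotype difference ran from -0.47 to 0.091 (Slfn3), -0.16 to 0.48 (Slfn4), -0.11 to 0.021 (Slfn5) and -0.042 to 0.26 (Slfn8). At 8 h that of Slfn9 ran from -0.84 to 0.094. At 12 h it ran from -0.058 to 0.31 (Slfn1), -0.029 to 0.12 (Slfn2), -0.18 to 0.16 (Slfn3) and -0.027 to 0.097 (Slfn5), and over the mean from -0.091 to 0.029 (Slfn8). Differences in the 8 h response ran from -0.029 to 0.28 (Slfn2) and -0.074 to 0.86 (Slfn9). Those in the 12 h response ran from -0.18 to 0.18 (Slfn1), -0.11 to 0.044 (Slfn2), -0.097 to 0.47 (Slfn3) and -0.16 to 0.14 (Slfn8). With 2 libraries per condition the interval of a genotype difference was wide for Slfn4 and Slfn9, so small differences were not detectable. The Slfn4 difference at 8 h, 2.64 times by mean CPM, was not called either, so the lack of calls does not exclude differences of that size.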

Other observations

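Genes of transfer RNA biology, the process on which Slfn2 and other Schlafen proteins act, gave no higher call beside the family with library-size scaling. Of 6 such genes, all of which passed the filter, 0 were called higher and 5 lower at 8 h and at 12 h, with medians of -0.93 and -1.08 on the log2 scale against -0.72 and -0.76 over all genes, of which 7225 and 7284 of 12086 were called lower. Ang, which encodes the ribonuclease angiogenin, differed by -0.96 at 8 h, its inhibitor gene Rnh1 by -0.90, and the transfer RNA methyltransferase gene Nsun2 by -1.12. These directions depended in part on the scaling. With median-of-ratios scaling 1 was called lower (Elac2, -0.76), 1 higher (Trdmt1, 0.58) and 4 neither way at 8 h. At 12 h 3 were called lower, 1 higher and 2 neither way, with a median of -0.43 against -0.04 over all genes. With quantile normalization 3 were called lower at 8 h and 4 at 12 h, with 1 higher at each time. None of the 6 was called between genotypes at any of the 3 times by limma.

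Other marker lists gave low sums. B cell markers (5 genes) summed to 0.204 to 6.48 CPM and fibroblast markers (5 genes) to 0.355 to 2.51 CPM over the 12 libraries, and T cell markers to 3.73 to 32.6 CPM, of which Lck made up to 31.4 CPM.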
